A study of Homo sapiens with 12 samples.

Results

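Interferon-stimulated genes are the genes that cells switch on when an interferon binds its receptor, and 40 of them were followed across the 4 groups of this study. They were taken by name. Of the 40, 39 had an array feature that named that gene alone, out of 18417 genes tested, and each of the 39 had 1 such feature. The remaining member, STAT2, was not analysed here. Transcript levels were measured on Affymetrix arrays in MDA-MB-231, an established human cell line from a triple-negative breast cancer. The groups were TTR cells with TRAIL, TTR cells untreated, parental cells with TRAIL and parental cells untreated, with 3 arrays each and 12 in all. TTR cells are a derivative of the line that had been treated to resistance, and TRAIL, a ligand of the cell-death receptors TNFRSF10A and TNFRSF10B, was added to the treated groups for 2 hours at 100 ng per ml. The labels name no genetic change in any group, and do not say which agent made the TTR cells resistant, whether they are 1 clone, or how long they had been without that agent when sampled.

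Interferons signal through receptor-bound kinases, JAK1 and TYK2 among them, to STAT proteins. With IRF9, a pair of STAT proteins forms the complex ISGF3, which enters the nucleus and binds a DNA element, the interferon-stimulated response element (ISRE), in front of many of these genes. Interferon-gamma acts mainly through another element, the gamma-activated sequence (GAS). The products of the genes block viruses at entry, during translation and at budding, and some of them, such as USP18, dampen the signal again. In tumour cells a part of the set is often on without added interferon. IRF1 and IRF7, which belong to the set, are transcription factors that bind the same kind of element, and the IRF1 gene is also a known target of NF-kB, a factor that TRAIL receptors can activate.

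Promoter windows from RefSeq (GRCh38.p14), which run from 250 bases before to 50 bases from the annotated start, were held for 32 of the 39 genes. Each was searched on both strands for 3 forms, which may overlap one another. The ISRE core was GAAA, any 2 bases and GAAA again, the GAS form was TTCNNNGAA, and the form of the NF-kB site was GGG, any 2 bases and TTTCC. The ISRE core was found in 23 of the 32 genes (71.9%), against 4.38% of the 27305 genes with a window of the same length. The GAS form was found in 12 of the 32 (37.5%), against 9.38% of all genes. The NF-kB form was found in 2 of the 32 (6.25%), IFIH1 and OAS3, against 2.33% of all genes. Other forms of the NF-kB site were not searched. Its absence from a window, that of IRF1 among them, does not say that no NF-kB site is there. The stretches printed below show that the same letters stand close to the starts of genes that moved in opposite directions, or did not pass the test, in the results that follow. ISG15 (chr1:1013354-1013423, plus strand) and IFI44 (chr1:78649741-78649798, plus strand) were higher with TRAIL in parental cells. IFIT1 (chr10:89392477-89392546, plus strand), DTX3L (chr3:122564302-122564347, plus strand) and HERC5 (chr4:88456964-88457033, plus strand) were lower. MX1 (chr21:41431824-41431893, plus strand) did not pass, and IRF1 (chr5:132490859-132490927, minus strand), shown for its GAS form, was higher. Capitals mark the ISRE core on either strand, and for IRF1 the GAS form, and each stretch is read 5′ to 3′ on the strand of the gene.
ISG15: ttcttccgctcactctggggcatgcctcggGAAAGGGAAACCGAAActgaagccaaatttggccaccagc
IFI44: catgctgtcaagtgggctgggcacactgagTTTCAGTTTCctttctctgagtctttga
IFIT1: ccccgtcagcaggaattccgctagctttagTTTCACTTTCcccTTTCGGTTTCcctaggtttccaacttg
DTX3L: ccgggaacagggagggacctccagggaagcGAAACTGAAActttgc
HERC5: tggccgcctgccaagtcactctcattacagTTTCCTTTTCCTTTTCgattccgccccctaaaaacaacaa
MX1: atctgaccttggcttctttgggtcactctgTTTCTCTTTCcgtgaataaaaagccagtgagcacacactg
IRF1: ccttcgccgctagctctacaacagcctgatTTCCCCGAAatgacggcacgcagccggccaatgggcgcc

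The ISG15 and HERC5 stretches each hold 2 overlapping cores and the IFIT1 stretch 2 separate ones, while IFI44, DTX3L and MX1 show 1 each. The core of DTX3L, from position 122564332 to 122564341 on chromosome 3, lies at its annotated start and is also the core found for PARP9, whose start lies close by on the opposite strand. No match was found in the windows of OAS1, IFI35, IRF1, IRF9, HERC6, SAMD9L, XAF1, SP110 and CMPK2 for the ISRE core, which says only that these letters are absent from these windows.

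**Figure D1:**
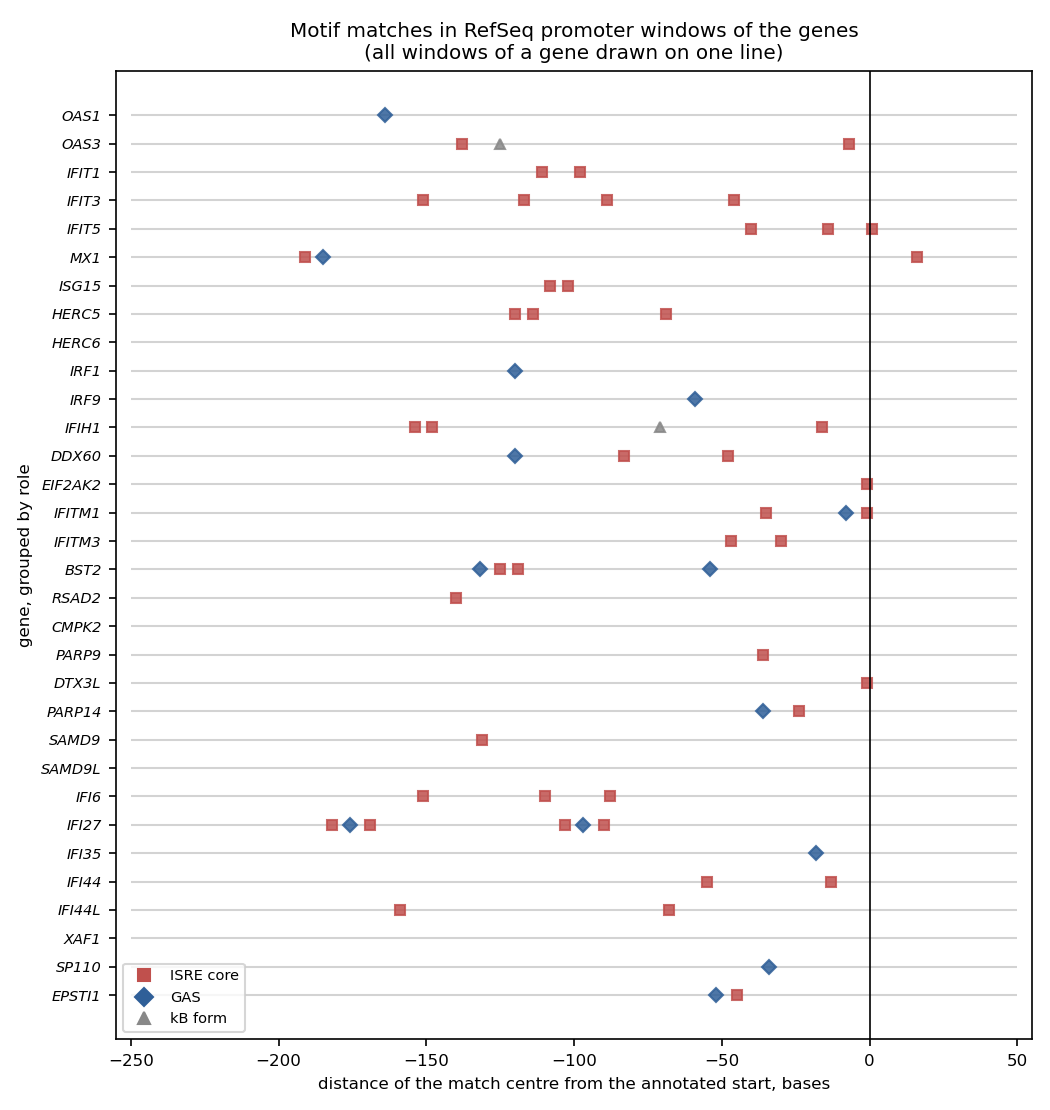
Matches to the ISRE core (squares), the GAS form (diamonds) and the NF-kB form (triangles, called kB form in the legend) in the promoter windows of the 32 genes with a window, where the x axis gives the distance of the centre of each match from the annotated start in bases, with all windows of a gene on 1 line. Of the 32 genes, 23 have at least 1 square.

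The cells carried the markers of their line: VIM, CD44, AXL, MSN and CAV1 had mean levels between 9.43 and 11.77 on the log2 scale in all groups. Of these 5, 4 fell and 1 rose with TRAIL in parental cells. PTPRC, carried by all leukocytes, had group means between 2.14 and 2.44, and at these low levels was higher by 0.25 with TRAIL in parental cells (limma, adjusted p under 0.05). The summed level of 10 measured immune markers was 29.20 to 29.97 in TTR cells with TRAIL, 29.95 to 30.19 in untreated TTR cells, 30.70 to 32.06 in parental cells with TRAIL and 30.18 to 31.25 in untreated parental cells, and its part in the results was not tested. The 3 arrays of parental cells with TRAIL stood apart from the other 9. Their medians over all features were 4.58 to 4.61, against 4.38 to 4.40 in TTR cells with TRAIL and 4.24 to 4.31 on the 6 untreated arrays. Values are relative to the rest of the same array, and the difference of the array medians was 0.291 for TRAIL in parental cells, 0.107 for TRAIL in TTR cells, −0.019 for TTR against parental cells untreated and −0.203 with TRAIL. In parental cells with TRAIL the lower quartiles of the arrays were 2.98 to 3.05 and the upper ones 6.545 to 6.593. In untreated parental cells they were 2.84 to 2.89 and 6.65 to 6.69, so the low end rose while the high end fell. Centring takes the same amount from every gene of an array, so it takes out the shift of the medians and not this narrowing. The main results that change with centring are given below. The labels do not say that replicates were separate cultures, so the p-values take in no more than the spread among the arrays. An unexplained tag in the sample descriptions takes one form in parental arrays and another in TTR arrays, so tag and line cannot be told apart. A number in the same tag goes with the replicate number and is shared by 1 array of each of the 4 groups, with 1 array spelled slightly differently. The labels do not say what it marks, so counts with the replicate number as a block are given for every comparison among the alternatives. In a population of cells, fewer cells that express a gene and less of its RNA in each cell cannot be told apart.

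Across the 39 genes, the median level on each array was 5.35, 5.37 and 5.42 in TTR cells with TRAIL, 5.45, 5.48 and 5.52 in untreated TTR cells, 5.07, 4.95 and 5.07 in parental cells with TRAIL, and 5.76, 5.70 and 5.65 in untreated parental cells. The 4 groups did not overlap in this value, with parental cells highest when untreated and lowest with TRAIL. The genes did not move as a block. IRF1, IRF7 and ISG15 ran against most of the others in parental cells with TRAIL, as the map of all genes shows.

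**Figure D2:**
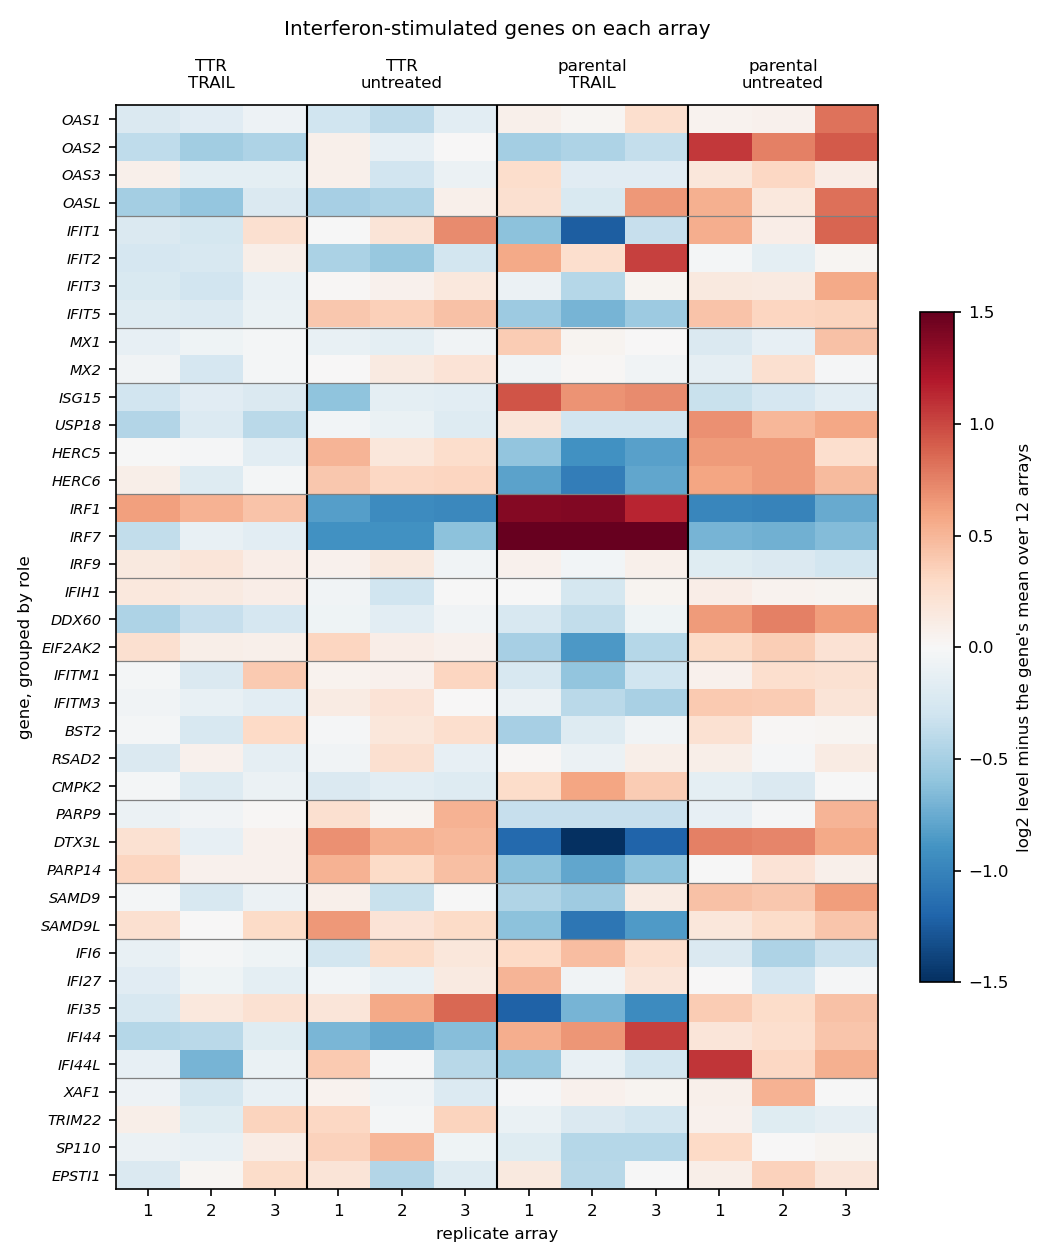
Level of each of the 39 genes on each of the 12 arrays, as the log2 level minus the mean of that gene over the 12 arrays, with arrays in columns by group, genes in rows by role, red above and blue below the mean of the gene, and colours that saturate at 1.5 in either direction. In parental cells with TRAIL, IRF1, IRF7 and ISG15 are red on all 3 arrays while DTX3L, HERC6 and EIF2AK2 are blue.

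The first comparison asked what 2 hours of TRAIL did to these genes in parental cells. It split them. Of the 39, 8 rose, where 28.9% of all genes tested rose, and 20 fell, where 29.9% of all genes fell, and 11 did not pass (limma, adjusted p under 0.05). As shares of the 39 these were 20.5% and 51.3%. Their median log2 difference was −0.34, against 0.05 over all genes tested. The transcription factors IRF7 and IRF1 rose most, and DTX3L, a ubiquitin ligase that pairs with PARP9, fell most. After median centring 5 rose and 29 fell, with all 20 of the falls kept. OAS1, OAS3, OASL, IFIH1, RSAD2, MX2, XAF1, TRIM22 and EPSTI1 were added to them. Centring takes 0.291 from every gene in this comparison, so all values move down, also at the high levels where the upper quartiles had already fallen. The share of all genes called after centring was not counted. Differences below are on the log2 scale with their SE, and are below 0 where TRAIL was lower.

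All 3 measured transcription factors of the set rose, IRF9 not after median centring or quantile normalization. IRF7, the factor that drives interferon-alpha genes, had levels of 8.21, 8.29 and 8.03 in parental cells with TRAIL, against 5.77, 5.75 and 5.81 in untreated parental cells. It was 5.27-fold higher (log2 difference 2.40 ± 0.11, SE, n = 3 each, limma adjusted p = 4.39e-11), and every array with TRAIL lay above every untreated array. IRF1, which was first known as a factor of the interferon-beta gene, read 8.62, 8.64 and 8.39 with TRAIL, against 6.27, 6.25 and 6.49 untreated. It was 4.64-fold higher (2.22 ± 0.10, limma adjusted p = 5.98e-11), again with no overlap between the groups. IRF9, the DNA-binding part of ISGF3, rose by 0.26 ± 0.09 (limma adjusted p = 0.0203). Its value turned to −0.03 after median centring (adjusted p = 0.784) and was 0.0051 after quantile normalization (adjusted p = 0.97). The IRF9 call was also lost when only the parental arrays were fitted (adjusted p = 0.0514, or 0.07 with the replicate block). It was lost too without parental untreated array 3 (adjusted p = 0.0651) or parental TRAIL array 3 (adjusted p = 0.0546).

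ISG15 and the enzymes of its pathway moved in opposite directions. ISG15, a ubiquitin-like protein that is attached to other proteins, had levels of 6.58, 6.31 and 6.34 with TRAIL, against 5.29, 5.38 and 5.48 untreated. It was 2.04-fold higher (1.03 ± 0.12, limma adjusted p = 1.84e-06) with no overlap. HERC5, the ligase that attaches ISG15 in human cells, was lower, at −1.29 ± 0.13, and USP18, the protease that removes it, at −0.72 ± 0.12. HERC6, a relative of HERC5, had levels of 5.32, 5.10 and 5.35 with TRAIL, against 6.72, 6.77 and 6.61 untreated. It was 2.72-fold lower (−1.44 ± 0.10, limma adjusted p = 4.81e-09), with every TRAIL array below every untreated array. USP18 read 5.01, 4.54 and 4.55 with TRAIL, against 5.52, 5.33 and 5.41 untreated, and these groups did not overlap (limma adjusted p = 9.05e-05).

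All 3 genes of the PARP9, DTX3L and PARP14 group fell. DTX3L had levels of 5.07, 4.68 and 5.04 in parental cells with TRAIL, against 6.997, 6.97 and 6.80 untreated. It was 3.98-fold lower (−1.99 ± 0.12, limma adjusted p = 9.51e-10), with no overlap and a wide gap between the groups. PARP14, an ADP-ribosyltransferase, was lower, at −0.76 ± 0.11, and PARP9, the partner of DTX3L, at −0.47 ± 0.15. PARP9 was the less firm of these: its call was lost without parental untreated array 3 (adjusted p = 0.0794), which read 4.08 while the others of that group read 3.45 and 3.55.

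Of the 4 IFIT genes, whose products bind viral RNA and hold back its translation, 3 fell and 1 rose. IFIT1 was lower, at −1.24 ± 0.23 (limma adjusted p = 2.41e-04) and IFIT3 at −0.45 ± 0.13 (limma adjusted p = 0.00836). IFIT5 read 6.08, 5.93 and 6.09 with TRAIL, against 7.05, 6.95 and 6.96 untreated, a difference of −0.96 ± 0.09 (limma adjusted p = 9.49e-08) with no overlap. IFIT2, which is also known to promote cell death, was higher by 0.67 ± 0.16 (limma adjusted p = 0.00165), or by 0.38 after median centring, where it did not pass (adjusted p = 0.0504). The IFIT3 call was lost without parental untreated array 3 (adjusted p = 0.0582) or parental TRAIL array 2 (adjusted p = 0.0523).

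Among the OAS genes, enzymes that sense double-stranded RNA and activate the nuclease RNase L, OAS2 passed and the 3 others did not. OAS2 had levels of 5.01, 5.05 and 5.16 with TRAIL, against 6.58, 6.27 and 6.44 untreated, and was 2.56-fold lower (−1.36 ± 0.10, limma adjusted p = 8.22e-09). No TRAIL array reached an untreated one. OAS1, OAS3 and OASL had differences of −0.19, −0.22 and −0.28 and did not pass (limma adjusted p from 0.155 to 0.318), and their groups overlapped. After median centring they were lower, at −0.48, −0.51 and −0.58 (adjusted p = 0.0137, 0.00254 and 0.0259). OAS1 and OAS3 also passed after quantile normalization (adjusted p = 0.0167 and 0.00331), OAS3 without parental TRAIL array 1 (−0.37, adjusted p = 0.0186) and OASL with the replicate block (adjusted p = 0.0393).

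Of the RNA sensors and the RNA-activated kinase, DDX60, a helicase, and EIF2AK2, the kinase PKR that halts translation, fell. DDX60 read 5.26, 5.13 and 5.44 with TRAIL, against 6.14, 6.27 and 6.14 untreated, a difference of −0.91 ± 0.10 (limma adjusted p = 8.40e-07). EIF2AK2 read 7.29, 6.94 and 7.36 with TRAIL, against 8.08, 8.17 and 8.02 untreated, a difference of −0.89 ± 0.12 (limma adjusted p = 5.58e-06). Neither pair of groups overlapped. IFIH1, the RNA sensor MDA5, had a difference of −0.14 ± 0.11 and did not pass, but was lower after median centring (−0.43, adjusted p = 0.00209). SAMD9 and SAMD9L, neighbouring genes whose products restrain poxviruses, both fell, with log2 differences of −0.78 ± 0.15 and −1.14 ± 0.14.

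Of 5 genes in the group called membrane-associated, 3 fell and 1 rose. The gene that rose was CMPK2, whose product is a mitochondrial kinase, and IFITM1, IFITM3, BST2 and RSAD2 did not rise. IFITM3 and IFITM1, which block the entry of viruses, were lower, at −0.65 ± 0.11 and −0.56 ± 0.14. Near-identical relatives of these genes exist, so the features may read more than 1 of them and the values are uncertain. BST2, the tether that holds budding virus particles, was lower, at −0.34 ± 0.14 (limma adjusted p = 0.0462), and 7 of the 12 arrays ended this call when left out, all 3 of the untreated parental group among them (adjusted p = 0.0563 to 0.213 over the 7). CMPK2, a mitochondrial nucleotide kinase, was higher by 0.54 ± 0.10 (limma adjusted p = 2.37e-04), while its genomic neighbour RSAD2, the antiviral enzyme viperin, had a difference of −0.06 ± 0.11 and did not pass.

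Of the 5 small interferon-inducible proteins, IFI6, a protein that restrains cell death, was higher by 0.67 ± 0.13 (limma adjusted p = 2.71e-04). IFI44 read 7.20, 7.31 and 7.68 with TRAIL, against 6.83, 6.90 and 7.06 untreated, a difference of 0.46 ± 0.12 (limma adjusted p = 0.00398). These groups did not overlap, but after median centring IFI44 was higher by 0.17 and did not pass (adjusted p = 0.24). Its neighbour IFI44L was lower, at −0.95 ± 0.22 and IFI35 at −1.31 ± 0.17 (limma adjusted p = 0.0012 and 3.99e-06). IFI27 had a difference of 0.30 ± 0.13 and did not pass (limma adjusted p = 0.0556). Without parental TRAIL array 2 it was higher (0.43, adjusted p = 0.00793), as it was with array weights, with the replicate block on all arrays or on the compared groups, and without the dimmest genes (adjusted p = 0.0333, 0.0388, 0.0451 and 0.0468), while after median centring its value was 0.0092. SP110, a nuclear body protein, was lower, at −0.46 ± 0.14, a call lost without parental untreated array 1 (adjusted p = 0.0537). XAF1, TRIM22 and EPSTI1 did not pass, with differences of −0.17, −0.12 and −0.30. The dynamin-like GTPases MX1 and MX2, often used as indicators of interferon, had differences of 0.11 (95% interval −0.20 to 0.42) and −0.06 (−0.29 to 0.17) and did not pass, and after median centring these were −0.18 and −0.35 (adjusted p = 0.292 and 0.0112), so the value of MX1 turned. Without parental untreated array 3, which read 3.95 while the others of that group read 3.29 and 3.39, MX1 was higher (0.31, adjusted p = 0.0363). Their levels lay between 2.83 and 3.95 on all 12 arrays, where low levels can be background.

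**Figure D3:**
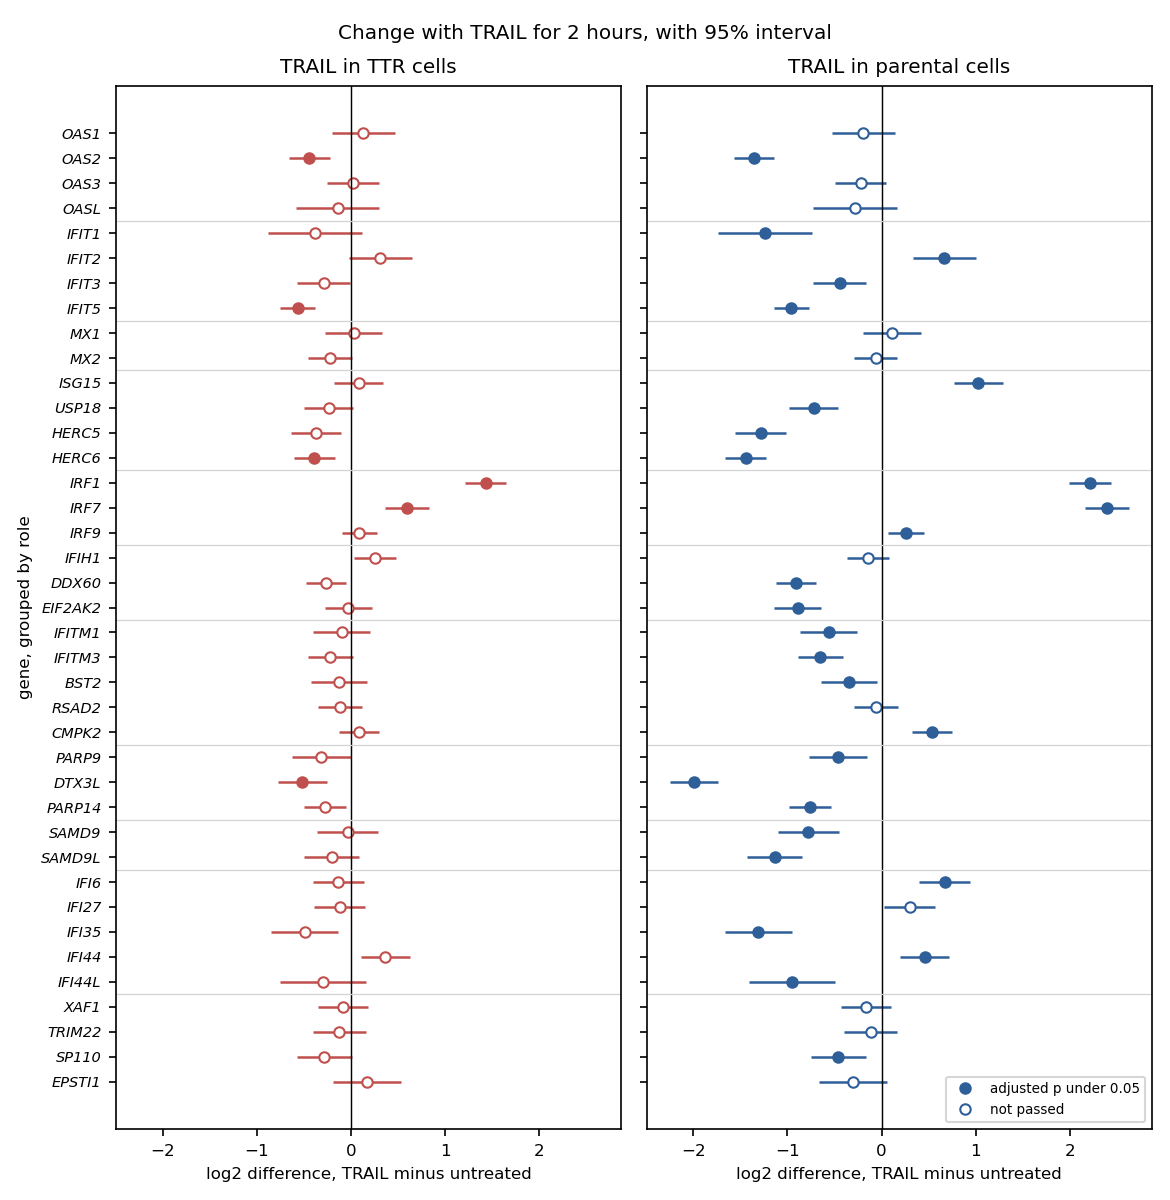
Log2 difference of each gene with TRAIL for 2 hours, TRAIL minus untreated, in TTR cells (left) and parental cells (right), as points with bars for 95% intervals from limma, filled where the adjusted p was under 0.05. In parental cells 8 points are filled to the right of 0 and 20 to the left, and in TTR cells 2 and 4, all from the fit without a replicate block.

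The pathway around these genes was described with 6 lists. Their counts are to be set beside the 28.9% of all genes that rose and the 29.9% that fell. In parental cells with TRAIL, 3 of 8 measured interferon ligands rose and 0 fell, by limma as throughout. None of the type I ligands on the list (IFNB1, IFNE, IFNK and IFNW1) was among the 3. The list held no interferon-alpha gene. IFNL3, a type III interferon, was 2.31-fold higher (1.21 ± 0.12, limma adjusted p = 1.56e-07), and IFNL2 and IFNL1 were higher by 0.66 ± 0.14 and 0.58 ± 0.12. IFNL2 and IFNL3 are near-identical copies and their features may share signal, and IFNL1 did not pass after median centring (adjusted p = 0.0505) or quantile normalization (adjusted p = 0.0547). IFNB1, the interferon-beta gene, read 2.51, 2.77 and 2.31 with TRAIL, against 2.49, 2.53 and 2.56 untreated, so its groups overlapped, at a low level where a change could be hidden. Of 10 receptors, kinases and STATs, 1 rose and 7 fell. The receptor chains IFNGR1 and IL10RB were 3.42-fold and 3.08-fold lower (−1.77 ± 0.16 and −1.62 ± 0.14), and the transcription factor STAT3 was lower, at −0.82 ± 0.09. The gene that rose, TYK2 (0.82 ± 0.11), was chosen after its values were seen. Of 3 endothelial markers 1 rose and 1 fell, CDH5 at 0.33 ± 0.10 and PECAM1 at −0.98 ± 0.16, and of 6 luminal markers 2 rose and 1 fell, with FOXA1 at 0.80 ± 0.12 and EPCAM at −0.77 ± 0.11. Of 4 fibroblast markers 2 rose and 0 fell. Of 5 markers of macrophages and dendritic cells 1 rose and 1 fell, and of 4 markers of T and B cells 0 passed. Their part in the result was not tested.

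Among the brakes on interferon signalling, SOCS1 had the largest rise of any gene in the 6 lists. SOCS1, which blocks the JAK kinases, had levels of 8.64, 8.84 and 8.93 in parental cells with TRAIL, against 4.78, 4.57 and 4.75 untreated, and was 17.2-fold higher (4.10 ± 0.13, limma adjusted p = 4.81e-13). SOCS3, its relative, was 4.91-fold higher (2.30 ± 0.11), and PIAS1, a SUMO ligase that restrains STATs, was lower, at −0.83 ± 0.09. In all, 4 of 9 brakes rose and 4 fell. Of 14 genes of nucleic acid sensing 4 rose and 4 fell, 28.6% each and near the 28.9% and 29.9% of all genes. The DNA sensor AIM2 was higher by 1.17 ± 0.11. RIGI, the RNA sensor, and TLR3, the endosomal receptor for double-stranded RNA, were lower, at −1.50 ± 0.14 and −1.69 ± 0.20. Of 17 genes linked to interferon-gamma 2 rose and 4 fell. The chemokine CXCL10 was 5.26-fold higher (2.40 ± 0.17, limma adjusted p = 3.63e-09), while WARS1, a tryptophan tRNA synthetase, and PSMB9, a subunit of the immunoproteasome, were lower, at −1.29 ± 0.11 and −1.07 ± 0.12. Of 29 further interferon-inducible genes 3 rose and 16 fell, with TRIM21, an antibody receptor in the cytosol, NMI and the RNA-processing enzyme PNPT1 lower, at −1.83 ± 0.13, −1.53 ± 0.14 and −1.36 ± 0.12.

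With the same treatment in TTR cells, fewer of the genes passed. Of the 39, 2 rose, where 3.27% of all genes rose, and 4 fell, where 2.55% of all genes fell, and 33 did not pass. The median log2 difference was −0.13, against −0.01 over all genes. IRF1 and IRF7 rose, and IFIT5, DTX3L, OAS2 and HERC6 fell. All 6 had also been called in the same direction in parental cells, and 0 genes were called in TTR cells alone. At an unadjusted p under 0.05, 4 of the 39 were higher and 10 lower, against 1586 and 2208 of the 18417 genes tested. The counts above are from the fit without pairing. The replicate numbers pair these samples, since arrays of one number deviated together. With the number as a block and the TTR arrays alone 4 rose and 8 fell. IFI44 and IFIT2 were added to the rises and IFIT1, IFIT3, IFI35 and HERC5 to the falls. The share of all genes called in that paired fit was not counted, so 4 and 8 cannot be set beside 3.27% and 2.55%. After median centring, which takes 0.107 from every gene in this comparison, 2 rose and 8 fell, with IFI35, DDX60, HERC5 and PARP14 added to the falls. The count of falls was 2 without TTR untreated array 2 or 3 and 1 without TTR TRAIL array 2 or 3.

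IRF1 read 7.86, 7.77 and 7.67 in TTR cells with TRAIL, against 6.42, 6.30 and 6.29 in untreated TTR cells. It was 2.70-fold higher (1.43 ± 0.10, SE, n = 3 each, limma adjusted p = 1.75e-07) with a wide gap between the groups. IRF7 read 6.10, 6.36 and 6.30 with TRAIL, against 5.56, 5.56 and 5.85 untreated, and was 1.51-fold higher (0.60 ± 0.11, limma adjusted p = 0.0038). Here the gap was small, between the highest untreated and the lowest TRAIL array, but the groups did not overlap. IFIT5 read 6.43, 6.43 and 6.53 with TRAIL, against 7.03, 6.98 and 7.07 untreated, and was lower, at −0.57 ± 0.09 (limma adjusted p = 0.00101). These 3 calls were kept under every alternative run.

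OAS2 read 5.13, 4.99 and 5.06 with TRAIL, against 5.60, 5.39 and 5.52 untreated, with no overlap, and was lower, at −0.44 ± 0.10 (limma adjusted p = 0.0189). OAS2 no longer passed when TTR untreated array 3 or TTR TRAIL array 2 or 3 was left out (adjusted p = 0.0538 to 0.0997). DTX3L read 6.46, 6.11 and 6.30 with TRAIL, against 6.92, 6.76 and 6.74 untreated, and was lower, at −0.52 ± 0.12 (limma adjusted p = 0.0215). HERC6 read 6.22, 5.94 and 6.10 with TRAIL, against 6.53, 6.44 and 6.46 untreated, and was lower, at −0.39 ± 0.10 (limma adjusted p = 0.0368). Neither of these pairs overlapped. Leaving out array 1 or 2 of untreated TTR cells, or array 2 or 3 of TTR cells with TRAIL, ended the DTX3L call (adjusted p = 0.0502 to 0.123). The HERC6 call ended without parental untreated array 1, any of the 3 TTR untreated arrays, or TTR TRAIL array 2 or 3 (adjusted p = 0.0523 to 0.179).

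ISG15 read 5.35, 5.46 and 5.42 in TTR cells with TRAIL, against 5.02, 5.48 and 5.47 untreated, so the groups overlapped and the difference of 0.08 ± 0.12 did not pass. IFI44 read 6.23, 6.25 and 6.47 with TRAIL, against 5.97, 5.88 and 6.01 untreated. These did not overlap, but the difference of 0.36 ± 0.12 did not pass (limma adjusted p = 0.0942). With the replicate number as a block IFI44 was higher in TTR cells with TRAIL (adjusted p = 0.0318, or 0.0222 on the TTR arrays alone). DDX60 read 5.04, 5.16 and 5.26 with TRAIL, against 5.44, 5.35 and 5.45 untreated, and USP18 read 4.40, 4.62 and 4.43, against 4.79, 4.73 and 4.63. Neither passed, at −0.26 ± 0.10 and −0.24 ± 0.12, although no TRAIL array reached an untreated one, and DDX60 was lower after median centring (−0.37, adjusted p = 0.0296). EIF2AK2, which had fallen in parental cells, read 8.04, 7.89 and 7.88 with TRAIL, against 8.12, 7.90 and 7.87 untreated, and its difference of −0.03 had a 95% interval of −0.28 to 0.22.

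Around them, 0 of 8 ligands and 0 of 10 receptors, kinases and STATs passed in TTR cells by limma, in either direction. At an unadjusted p under 0.05 these counts were 1 higher and 0 lower among the ligands, and 0 higher and 2 lower among the receptors, kinases and STATs. Of the 9 brakes 2 rose: SOCS1, with levels of 6.06, 6.26 and 5.74 with TRAIL, against 5.03, 4.96 and 4.81 untreated (1.09 ± 0.13, limma adjusted p = 4.82e-05), and SOCS3 (0.68 ± 0.11). CXCL10 rose (0.84 ± 0.17, limma adjusted p = 0.00727) and PSMB9 fell (−0.50 ± 0.12) among 17 genes linked to interferon-gamma. CGAS, the DNA sensor that makes cGAMP, rose (0.47 ± 0.12) among 14 sensing genes, and PARP12 (−0.43 ± 0.10) and TRIM21 (−0.47 ± 0.13) fell among 29 further genes. The calls of PSMB9, CGAS, PARP12 and TRIM21 each ended when array 2 or 3 of untreated TTR cells, or array 1 or 2 of TTR cells with TRAIL, was left out (adjusted p up to 0.126 for PSMB9, 0.135 for CGAS, 0.127 for PARP12 and 0.17 for TRIM21), and that of TRIM21 also without parental untreated array 1 or TTR TRAIL array 3 (adjusted p = 0.0528 and 0.0557).

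Before treatment, a small group of the genes was lower in TTR than in parental cells. Of the 39, 0 were higher, where 3.64% of all genes were, 7 were lower, where 3.47% of all genes were, and 32 did not pass (limma, adjusted p under 0.05). At an unadjusted p under 0.05, 4 of the 39 were higher and 11 lower, against 1730 and 1745 of the 18417 genes tested. The median log2 difference was −0.13, against −0.01 over all genes. The 7 were IFI44, OAS2, OASL, DDX60, USP18, OAS1 and SAMD9, which include 3 of the 4 OAS genes. Without the 3 arrays of parental cells with TRAIL in the fit, 0 were higher and 8 lower. The count of lower genes was 4 without parental untreated array 3 or TTR untreated array 2, and 1 gene was higher without TTR untreated array 1.

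IFI44 had levels of 5.97, 5.88 and 6.01 in untreated TTR cells, against 6.83, 6.90 and 7.06 in untreated parental cells. It was 1.98-fold lower (−0.98 ± 0.12, SE, n = 3 each, limma adjusted p = 1.06e-04). OAS2 had levels of 5.60, 5.39 and 5.52 in TTR cells, against 6.58, 6.27 and 6.44 in parental cells, and was 1.91-fold lower (−0.93 ± 0.10, limma adjusted p = 3.54e-05). For both, every TTR array lay below every parental array. DDX60 had 5.44, 5.35 and 5.45 in TTR cells, against 6.14, 6.27 and 6.14 in parental cells (−0.77 ± 0.10, limma adjusted p = 1.68e-04). USP18 had 4.79, 4.73 and 4.63 in TTR cells, against 5.52, 5.33 and 5.41 in parental cells (−0.70 ± 0.12, limma adjusted p = 0.00201), and neither gene overlapped between the lines. These 4 calls were kept under every alternative run.

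The other 3 were less firm. OASL, an OAS relative that lacks the enzyme activity, was lower, at −0.80 ± 0.21 (limma adjusted p = 0.0295), OAS1 at −0.60 ± 0.16 (limma adjusted p = 0.0311) and SAMD9 at −0.58 ± 0.15 (limma adjusted p = 0.0307). OAS1 read 3.95, 3.86 and 4.09 in TTR cells, against 4.30, 4.32 and 5.07 in parental cells, so the third parental array stood above the other two. Without it the OAS1 difference was −0.34 and did not pass (adjusted p = 0.0982), and it did not pass without TTR untreated array 1 or 2 either (adjusted p = 0.065 and 0.126). OASL did not pass without array 1 or 3 of the parental or array 1 or 2 of the TTR untreated cells (adjusted p = 0.0892 to 0.135), and SAMD9 without any parental untreated array or TTR untreated array 2 or 3 (adjusted p = 0.0523 to 0.16).

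The 2 factors that TRAIL raised in both lines did not pass between the untreated lines. IRF1 read 6.42, 6.30 and 6.29 in untreated TTR cells, against 6.27, 6.25 and 6.49 in untreated parental cells, a difference of −0.002 with a 95% interval of −0.22 to 0.22. IRF7 read 5.56, 5.56 and 5.85 in TTR cells, against 5.77, 5.75 and 5.81 in parental cells, a difference of −0.12 (−0.35 to 0.11). DTX3L read 6.92, 6.76 and 6.74 in TTR cells, against 6.997, 6.97 and 6.80 in parental cells (−0.11 ± 0.12), and overlapped. OAS2, USP18, DDX60 and SAMD9 were lower in untreated TTR cells and also lower with TRAIL in parental cells, and both comparisons use the same 3 untreated parental arrays. Of the 3 endothelial markers 0 were higher and 1 lower in untreated TTR cells, PECAM1 at −0.87 ± 0.16, and of the 6 luminal ones 0 were higher and 1 lower, EPCAM at −0.48 ± 0.11, and their part in the result was not tested.

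**Figure D4:**
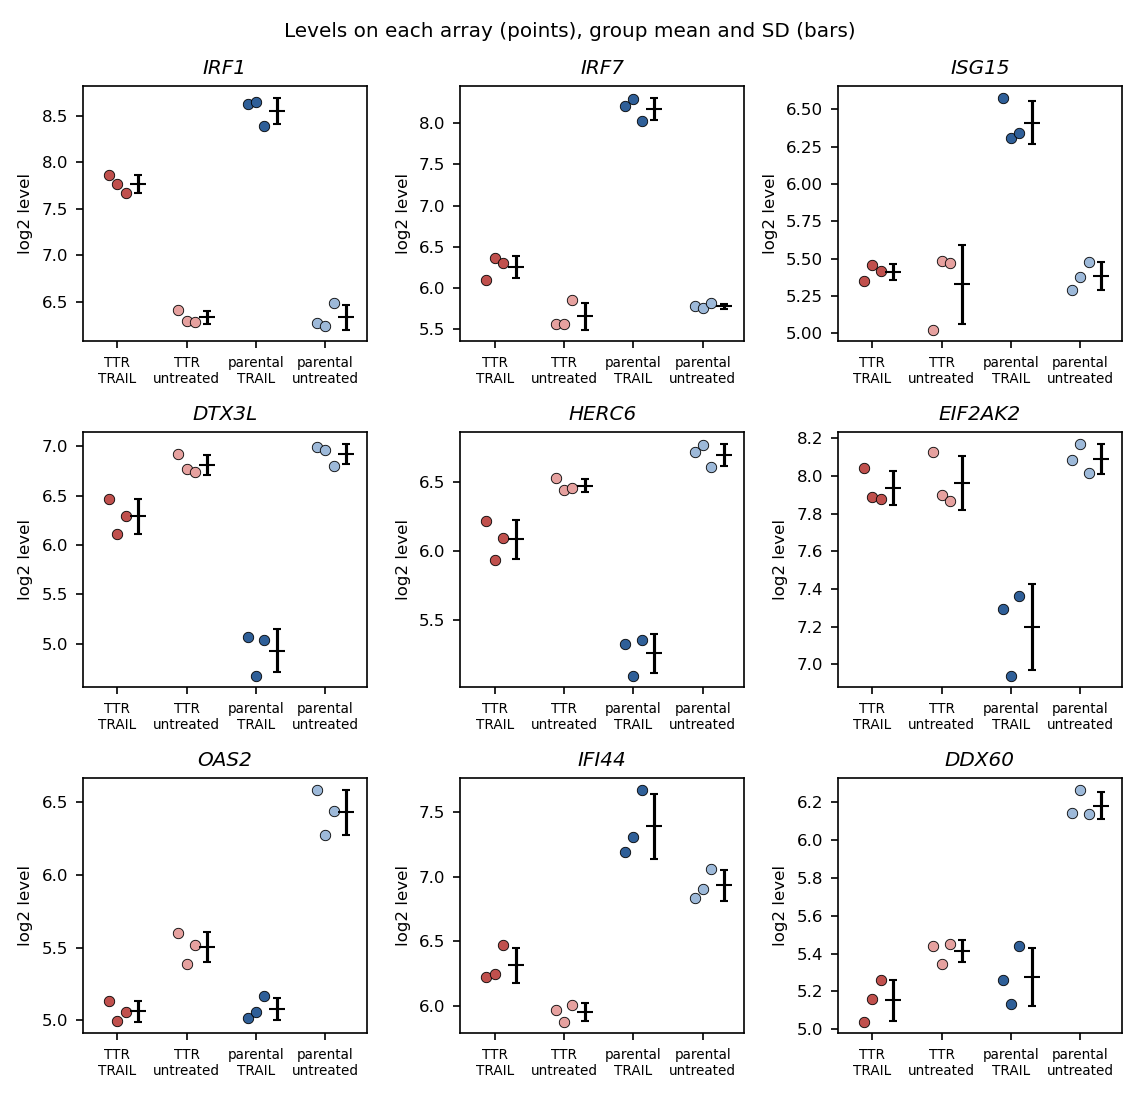
Log2 levels of 9 of the genes on each array (points), with the mean and SD of each group of 3 arrays (bars), for TTR cells with TRAIL, TTR cells untreated, parental cells with TRAIL and parental cells untreated, on axes that do not start at 0 and differ between genes. IRF1, IRF7 and ISG15 are highest in parental cells with TRAIL, DTX3L, HERC6 and EIF2AK2 are lowest there, and OAS2, IFI44 and DDX60 are lower in untreated TTR than in untreated parental cells.

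Few genes of the surrounding lists differed between the untreated lines, where 3.64% of all genes were higher and 3.47% lower in TTR cells. Of the 6 lists, the ligands and the receptors, kinases and STATs had 0 called genes in either direction by limma, and at an unadjusted p under 0.05 the ligands had 1 higher and 0 lower and the receptors 0 higher and 1 lower. GBP3, a guanylate-binding protein, was higher in TTR cells, at 6.42, 5.95 and 6.22, against 5.44, 5.45 and 5.30 in parental cells (0.80 ± 0.13, limma adjusted p = 0.00107). ZC3HAV1, which targets viral RNA for decay, was lower, at −0.63 ± 0.11 and IFI30, a lysosomal thiol reductase, at −0.66 ± 0.13 (limma adjusted p = 0.00138 and 0.00547). DHX58, PTPN6 and TAP2 were lower, at −0.42 ± 0.12, −0.40 ± 0.11 and −0.37 ± 0.10, with adjusted p-values of 0.0359, 0.031 and 0.0358. Each of these 3 calls ended without TTR untreated array 2 or parental untreated array 1 or 2, among other arrays (adjusted p up to 0.169 for DHX58, 0.141 for PTPN6 and 0.176 for TAP2).

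With TRAIL in both lines, TTR and parental cells differed in 19 of the 39 genes. Of these 10 were higher in TTR cells, where 28% of all genes were, and 9 were lower, where 26.4% of all genes were, so both shares, 25.6% and 23.1%, were close to those of all genes. The median log2 difference was 0.01, against −0.07 over all genes. After median centring 18 were higher and 6 lower, and after quantile normalization 14 and 8. Centring takes the shift of −0.203 from every gene, which moves all values up. The share of all genes called after either setting was not counted. IFITM3, IRF9, IFIH1, PARP9, SAMD9, BST2, TRIM22 and SP110 were the genes that centring added. This comparison shares the arrays of parental cells with TRAIL, the group that stood apart, with the TRAIL effect in parental cells.

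IRF7 read 6.10, 6.36 and 6.30 in TTR cells with TRAIL, against 8.21, 8.29 and 8.03 in parental cells with TRAIL. It was 3.79-fold lower (−1.92 ± 0.11, limma adjusted p = 1.36e-09), with a wide gap between the groups. ISG15 read 5.35, 5.46 and 5.42 in TTR cells, against 6.58, 6.31 and 6.34 in parental cells, and was 2.001-fold lower (−1.001 ± 0.12, limma adjusted p = 3.29e-06). IFI44 read 6.23, 6.25 and 6.47 in TTR cells, against 7.20, 7.31 and 7.68 in parental cells, and was 2.11-fold lower (−1.08 ± 0.12, limma adjusted p = 1.40e-06). None of these groups overlapped. DTX3L read 6.46, 6.11 and 6.30 in TTR cells, against 5.07, 4.68 and 5.04 in parental cells, and was 2.57-fold higher (1.36 ± 0.12, limma adjusted p = 9.77e-08), with all TTR arrays above all parental ones.

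IRF1 was lower in TTR cells at −0.79 ± 0.10, IFIT2 at −0.75 ± 0.16, CMPK2 at −0.52 ± 0.10, OASL at −0.65 ± 0.21, IFI6 at −0.41 ± 0.13 and IFI27 at −0.34 ± 0.13. Higher in TTR cells were SAMD9L (1.03 ± 0.14), IFI35 (1.00 ± 0.17), HERC6 (0.83 ± 0.10), PARP14 (0.82 ± 0.11), EIF2AK2 (0.74 ± 0.12), HERC5 (0.72 ± 0.13), IFIT1 (0.65 ± 0.23), IFIT5 (0.43 ± 0.09) and IFITM1 (0.43 ± 0.14). Over these 15 calls the limma adjusted p ran from 3.87e-06 for HERC6 to 0.0341 for IFI27. IFI44 and OASL were the 2 genes lower in TTR cells both without and with TRAIL. OAS2 read 5.13, 4.99 and 5.06 in TTR cells, against 5.01, 5.05 and 5.16 in parental cells, and overlapped, with a difference of −0.02 and a 95% interval of −0.23 to 0.20. DDX60 and USP18 did not pass either, at −0.13 ± 0.10 and −0.22 ± 0.12.

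Of the calls with TRAIL, 14 of 19 held under every alternative run, and the 5 others rested on single arrays or on the scale. IFI27 was lost without parental TRAIL array 1 or 3 or any TTR TRAIL array (adjusted p = 0.052 to 0.188), and IFI6 without parental TRAIL array 2 (adjusted p = 0.0579). IFIT1 and IFITM1 were lost without parental TRAIL array 2 (adjusted p = 0.17 and 0.0954) or TTR TRAIL array 3 (adjusted p = 0.124 and 0.13). OASL, whose groups overlapped, was lost without parental TRAIL array 3 (adjusted p = 0.0916) or TTR TRAIL array 2 (adjusted p = 0.0587). After median centring IFI27, IFI6 and OASL did not pass (adjusted p = 0.407, 0.222 and 0.0842).

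**Figure D5:**
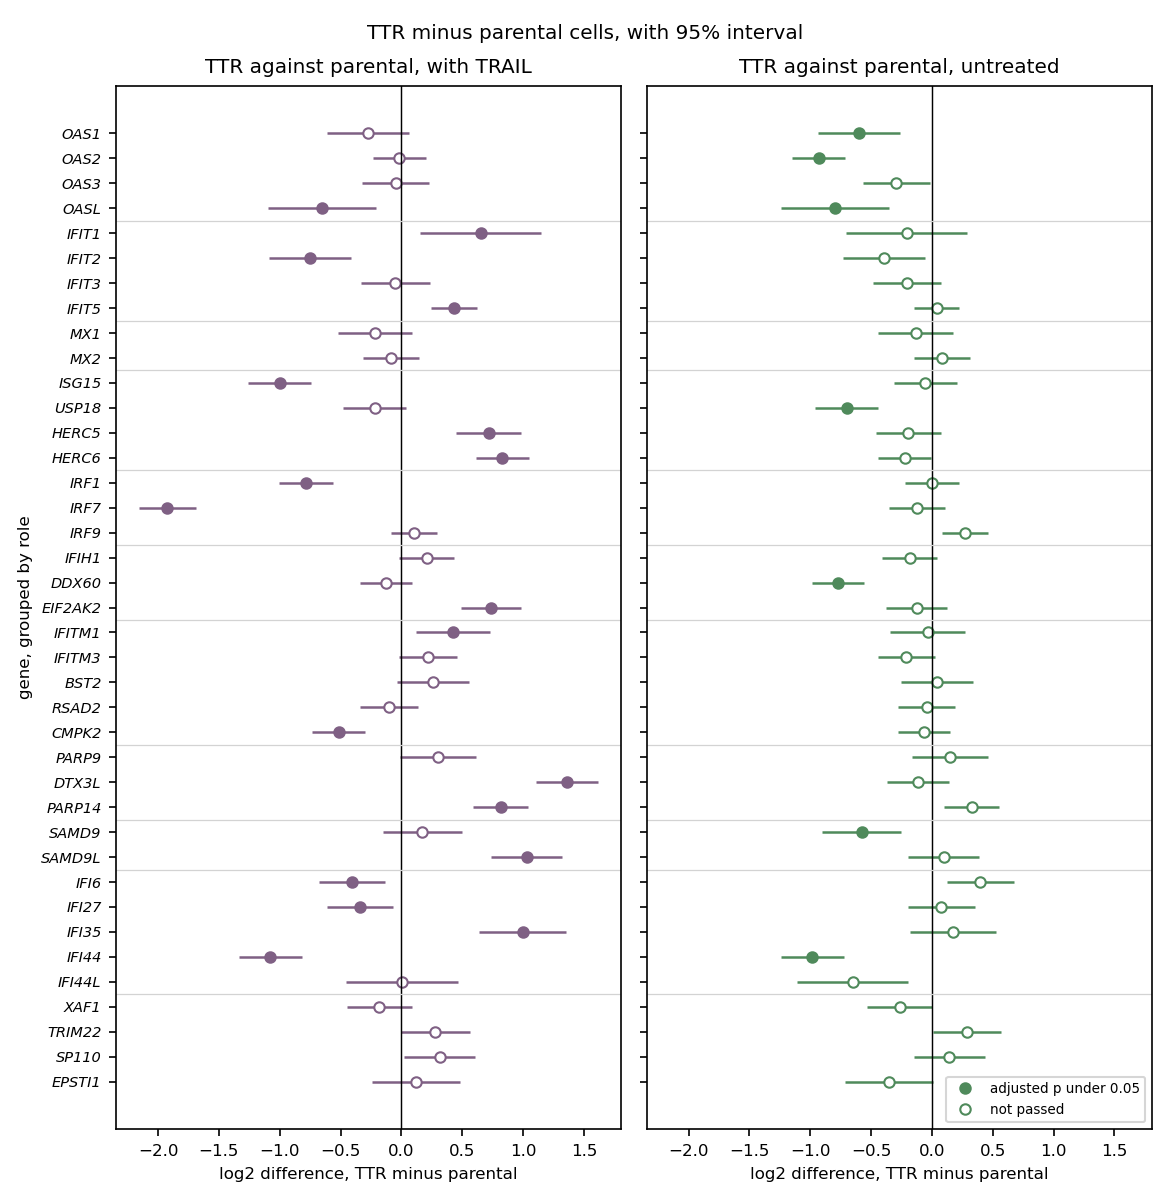
Log2 difference of each gene between the lines, TTR minus parental, with TRAIL (left) and untreated (right), as points with bars for 95% intervals from limma, filled where the adjusted p was under 0.05. With TRAIL 10 filled points lie right of 0 and 9 left of it, and untreated 0 and 7.

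With TRAIL 28% of all genes were higher in TTR cells and 26.4% lower. Among the surrounding lists, 0 of 8 ligands were higher and 5 lower in TTR cells by limma. IFNL3 was lower, at −1.13 ± 0.12. IFNL1 was lower, at −0.49 ± 0.12, a call lost after median centring (adjusted p = 0.0562) and quantile normalization (adjusted p = 0.0524). IFNK, at levels near background, was lower, at −0.26 ± 0.10 (limma adjusted p = 0.0433), and 8 of the 12 arrays ended this call when left out, up to an adjusted p of 0.183 without parental TRAIL array 2. Of 10 receptors, kinases and STATs 7 were higher and 1 lower, with IL10RB and IFNGR1 higher by 1.40 ± 0.14 and 1.40 ± 0.16 and STAT3 by 0.81 ± 0.09. Of 14 sensing genes 4 were higher and 3 lower: TBK1, the kinase that activates IRF3, and RIGI were higher by 1.16 ± 0.14 and 1.03 ± 0.14 and AIM2 was lower, at −0.88 ± 0.11. Of 9 brakes 4 were higher and 4 lower. SOCS1 read 6.06, 6.26 and 5.74 in TTR cells, against 8.64, 8.84 and 8.93 in parental cells, and was 6.89-fold lower (−2.78 ± 0.13, limma adjusted p = 2.47e-10). SOCS3 and the phosphatase gene PTPN6 were lower, at −1.98 ± 0.11 and −0.95 ± 0.11. Of 17 genes linked to interferon-gamma 5 were higher and 1, CXCL10, was lower (−1.82 ± 0.17), with PSMB9 and GBP3 higher by 0.92 ± 0.12 and 0.92 ± 0.13. Of 29 further genes 12 were higher and 4 lower, with GCA, TRIM21 and TRIM5, a factor that blocks retroviral capsids, higher by 1.85 ± 0.16, 1.68 ± 0.13 and 0.97 ± 0.10. Of the 5 markers of the line 4 were higher and 0 lower. Lower were 3 of 6 luminal, 2 of 5 macrophage and dendritic, 1 of 3 endothelial and 1 of 4 fibroblast markers, with 0 higher in each. The part of these markers in the result was not tested.

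Whether TRAIL acted differently in the 2 lines was tested directly, as the TRAIL effect in TTR cells minus that in parental cells. Of the 39 genes, 14 had a higher value, where 22.9% of all genes did, 5 had a lower one, where 14.3% of all genes did, and 20 did not pass (limma, adjusted p under 0.05). The median was 0.25, against −0.03 over all genes. In 18 of the 19 (94.7%) the change in TTR cells was nearer 0 than that in parental cells, as it was in 6790 of the 6852 genes of any kind with such a difference (99.1%), so this is not particular to these genes. The exception among the 19 was IFIH1, with 0.25 ± 0.11 in TTR cells, against −0.14 ± 0.11 in parental cells, neither of which passed. After median centring 18 had a higher and 4 a lower value. IFI44L, IFIT1, IFITM1 and EPSTI1 were added (limma adjusted p = 0.0381, 0.0201, 0.0189 and 0.0421) and CMPK2 was lost (−0.27, adjusted p = 0.161). The share of all genes called after centring was not counted here either.

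IRF7 had the largest such difference: it rose by 0.60 in TTR cells, against 2.40 in parental cells, a difference of −1.80 ± 0.15 (limma adjusted p = 6.69e-07). IRF1 rose by 1.43 in TTR cells, against 2.22 in parental cells (−0.78 ± 0.15, limma adjusted p = 4.99e-04). DTX3L had a log2 difference of −0.52 in TTR cells, against −1.99 in parental cells (1.48 ± 0.17, limma adjusted p = 6.84e-06). HERC6 had −0.39 in TTR cells, against −1.44 in parental cells (1.05 ± 0.15, limma adjusted p = 3.18e-05), and OAS2 had −0.44, against −1.36 (0.91 ± 0.14, limma adjusted p = 1.02e-04). For each of these the intervals of the lines lay apart. OAS2 differs from the others in that its levels in TTR and parental cells overlapped with TRAIL and not before it.

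By role, the effect differed for 3 of 3 RNA sensors and kinase genes, 2 of 2 SAMD9 genes, 4 of 4 genes of ISG15 and its enzymes, and 2 of 3 in each of the transcription factors and the PARP9, DTX3L and PARP14 group. It differed for 2 of 5 small interferon-inducible proteins and 2 of 5 genes in the group called membrane-associated, IFITM3 and CMPK2. It differed for 1 of 4 IFIT genes, 1 of 4 OAS genes, 0 of 2 MX genes and 0 of the 4 others (XAF1, TRIM22, SP110 and EPSTI1). In either direction these were 48.7% of the 39 genes, against 37.2% of all genes tested, and no role was tested against that share. Of the 19 calls 11 were kept under every alternative run. IFIH1, IFITM3 and USP18 had adjusted p-values of 0.0496, 0.0415 and 0.0386, and 9, 9 and 8 of the 12 arrays ended these calls when left out (adjusted p up to 0.136 for IFIH1, 0.0971 for IFITM3 and 0.104 for USP18). The IFIT5 call was lost without parental untreated array 1, TTR untreated array 2 or TTR TRAIL array 3 (adjusted p = 0.0507 to 0.0567), that of CMPK2 without parental untreated array 2 or TTR TRAIL array 2 (adjusted p = 0.0557 and 0.0586), and that of PARP14 without TTR TRAIL array 1 (adjusted p = 0.0535).

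Of all genes, 22.9% had a higher and 14.3% a lower value of this difference. In the surrounding lists, the effect of TRAIL differed between the lines for 2 of 8 ligands, both lower (IFNL3 and IFNL2). It differed for 7 higher and 1 lower of 10 receptors, kinases and STATs, and for 5 higher and 2 lower of 14 sensing genes. It differed for 4 higher and 3 lower of 9 brakes, 3 higher and 1 lower of 17 genes linked to interferon-gamma and 13 higher and 0 lower of 29 further genes. SOCS1 rose by 1.09 in TTR cells, against 4.10 in parental cells (−3.02 ± 0.18, limma adjusted p = 4.09e-08), and CXCL10 by 0.84, against 2.40 (−1.56 ± 0.24, limma adjusted p = 7.19e-05). Of the 3 endothelial markers 1 had a higher value, PECAM1 at 0.70 ± 0.23, and 0 a lower one, and 2 of the 3 lay below 0. Of the 6 luminal markers 1 was higher, EPCAM at 0.66 ± 0.16, and 1 lower, FOXA1 at −0.73 ± 0.17, with 4 of the 6 below 0. Of the 5 markers of the line 4 were higher and 0 lower. Among the 4 fibroblast and the 5 macrophage and dendritic markers 0 were higher and 1 of each was lower. Their part in the result was not tested.

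Set against the promoter letters printed above, the ISRE core was held by genes of every outcome of TRAIL in parental cells. Of the genes with a window, 3 of 6 that rose, 14 of 18 that fell and 6 of 8 that did not pass held an ISRE core, and the GAS form was held by 2, 6 and 4 of them. ISG15 and IFI44 rose and IFIT1, HERC5 and DTX3L fell, all with a core, while MX1 holds a core and did not pass. IRF1, which rose in both lines, holds the GAS form and no core in its window, and no window was held for IRF7.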

How the data were processed

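Transcript levels of parental and TTR MDA-MB-231 cells, with and without TRAIL, were read from the table the authors deposited, which holds 1 value per array and feature for 12 arrays in 4 groups of 3. The deposited values are log2 levels made with RMA in Affymetrix Power Tools, per the submitters' processing notes. The genome build and tool versions were not given in the sources used here. Arrays have no read depth, so their number limits the precision.

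Of 33252 features, 19460 named 1 gene, 1754 named several and were left out, and 12038 were not named. Gene identifiers of 19429 features matched RefSeq (GRCh38.p14), which changed 0 symbols. Where several features named a gene (769 genes), the one of highest mean was kept, giving 18417 genes. No pair of arrays held identical values.

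A linear model with 1 mean per group was fitted to all 12 arrays (limma 3.58.1, lmFit and eBayes, R 4.3.3) with 8 residual and 7.87 prior degrees of freedom, and tested on simulated data. Adjusted p-values are Benjamini-Hochberg over all 18417 genes within a comparison, with a threshold of 0.05, two-sided. Errors are standard errors of the fit for differences. The 5 comparisons were the TRAIL effect in TTR cells and in parental cells, the lines against each other with TRAIL and untreated, and the difference of the TRAIL effects. An exact permutation test of 3 against 3 cannot go below 0.1 and was not used. Tables and figures were made with Python 3.11.15, pandas 2.3.3 and matplotlib 3.10.9.

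Members and gene lists were chosen with earlier results of these data known. All members are reported, with the value on every array for the 4 called members with the smallest p per comparison, and from each of 6 pathway lists the 3 called genes with the smallest p per comparison are named. Genes shown or named outside this rule (ISG15, EIF2AK2, OAS1, IFNB1, TYK2, PECAM1, CDH5, EPCAM and FOXA1 among them) were chosen after their values were seen.

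Replicate numbers were checked for pairing by the correlation of deviations from the group means. Same-number pairs correlated at 0.146 to 0.395 for TRAIL in TTR cells, so the numbers pair those samples. They correlated at 0.056 to 0.107 for TRAIL in parental cells, −0.033 to 0.373 between the untreated lines and −0.007 to 0.141 with TRAIL. These fell short of 0.1 in at least 1 pair, so pairing was not taken there. Pairs of unlike number correlated at −0.344 to 0.055 for TRAIL in TTR cells. For TRAIL in parental cells they correlated at −0.097 to 0.032, below every same-number pair, so a weak pairing there is not excluded. Alternatives were median centring, quantile normalization, leaving out genes in the third with the lowest means, the mean of a gene's features, only the groups compared, array weights, a replicate block and leaving out each array. The block on the compared groups alone and a fit without the 3 parental TRAIL arrays were added after seeing the data.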

Additional observations from a re-analysis of the deposited data

Results flagged for a closer look

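The TRAIL effect in TTR cells differed from that in parental cells, by a test of the difference itself (an interaction term in limma, adjusted over all genes), for the 19 genes and 17 pathway genes given here. Values are the log2 effect in TTR cells minus that in parental cells. Among the interferon-stimulated genes the value was below 0 for IRF7 (−1.80), ISG15 (−0.94), IFI6 (−0.80), IRF1 (−0.78) and CMPK2 (−0.45). It was above 0 for DTX3L (1.48), HERC6 (1.05), SAMD9L (0.93), OAS2 (0.91), HERC5 (0.91), EIF2AK2 (0.86), IFI35 (0.82), SAMD9 (0.75), DDX60 (0.64), PARP14 (0.49), USP18 (0.48), IFITM3 (0.43), IFIT5 (0.39) and IFIH1 (0.39).

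Among the genes of the pathway lists it was below 0 for SOCS1 (−3.02), SOCS3 (−1.62), CXCL10 (−1.56), IFNL3 (−0.92), AIM2 (−0.88) and IFNL2 (−0.80). It was above 0 for GCA (1.46), IFNGR1 (1.40), TRIM21 (1.36), RIGI (1.19), IL10RB (1.16), PNPT1 (1.07), TBK1 (1.04), WARS1 (1.03), STAT3 (0.83), PIAS1 (0.68) and TAP2 (0.49). TAP2 did not pass after quantile normalization (adjusted p = 0.167), and IFI35, SAMD9, IFIT5, CMPK2 and IFITM3 did not pass there either (adjusted p = 0.0512, 0.0884, 0.0602, 0.209 and 0.337). No group has 4 or more arrays, so single arrays were not tested for standing apart.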

How the results depend on the processing

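Of the called genes, 21 of 28 for TRAIL in parental cells, 3 of 6 for TRAIL in TTR cells, 4 of 7 between the untreated lines, 14 of 19 between the lines with TRAIL and 11 of 19 in the difference of the TRAIL effects passed under every alternative run. After median centring the counts were 5 higher and 29 lower for TRAIL in parental cells, 2 and 8 in TTR cells, and 18 and 6 between the lines with TRAIL, and the medians were −0.63, −0.23 and 0.21. For the difference of effects there were then 18 higher and 4 lower, with a median of 0.43, and IRF9 reversed in parental cells to −0.0322. By construction this setting removes the shift of the array medians from every gene, and shares of all genes called under the alternatives were not counted. After quantile normalization the medians were −0.48 in parental cells, −0.20 in TTR cells and 0.12 between the lines with TRAIL. Without the dimmest genes (the third with the lowest mean) the median was −0.46 in parental cells and 0.39 for the difference of effects, on fewer genes. With array weights 4 were higher in TTR cells with TRAIL, and 2 were higher and 11 lower between the untreated lines, and the cause was not tested. Leaving out each array gave 7 to 9 higher, 17 to 20 lower and medians of −0.46 to −0.30 in parental cells, 2 to 3, 1 to 4 and −0.21 to −0.0774 in TTR cells, and 0 to 1, 4 to 7 and −0.16 to −0.0617 between the untreated lines. It gave 8 to 12, 7 to 10 and −0.0405 to 0.0889 between the lines with TRAIL, and 10 to 14, 4 to 7 and 0.24 to 0.35 for the difference of effects. The replicate block on all 12 arrays gave 9 higher and 21 lower in parental cells, 3 and 6 in TTR cells, 0 and 8 between the untreated lines, 12 and 9 with TRAIL, and 16 and 5 for the difference of effects. On the compared groups alone the replicate block gave 4 higher and 8 lower in TTR cells. Without the 3 parental TRAIL arrays, 3 were higher and 4 lower in TTR cells with TRAIL and 0 and 8 between the untreated lines. Genes at low levels, MX1 and MX2 among them, may hide changes in background.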
